A study of Mus musculus with 4 samples.

Results

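The Zfp genes of mouse chromosomes 7, 13 and 17 were examined in ATAC-seq peak lists of bone marrow-derived macrophages (BMDMs). The members were all protein-coding genes of the GENCODE vM21 annotation of mm10 whose symbol begins with Zfp on these 3 chromosomes. They numbered 174 of 21755 protein-coding genes, with 92 on chromosome 7, 46 on chromosome 17 and 36 on chromosome 13, and another 223 Zfp genes lay elsewhere in the genome. Zinc finger genes under other kinds of symbol were not members. ATAC-seq marks open chromatin through DNA cut by the Tn5 transposase. WT mice were H3f3a fl/fl H3f3b fl/fl without Cre, and H3.3cKO (cKO) mice carried the same floxed alleles with LysM cre/cre, so that both groups were floxed and only the cKO mice had Cre. LysM Cre is expressed from the Lyz2 locus in macrophages, monocytes and granulocytes. Marrow of 8 to 10 week old mice on the C57BL/6 background was cultured with L929 cell medium, for 6 to 8 days in the paper's general method. For ATAC-seq the paper names BMDMs of day 7. Each genotype had 2 libraries labelled as biological replicates.

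Most Zfp genes encode C2H2 zinc finger proteins, many with a KRAB domain that binds the corepressor TRIM28 (KAP1). TRIM28 brings in the methyltransferase SETDB1, which places H3K9me3, and KRAB zinc finger proteins use this route to repress retrotransposons. These genes arose by repeated duplication and lie in tandem clusters, whose 3′ coding exons are known to carry H3K9me3 together with histone H3.3 and its chaperone ATRX-DAXX. H3.3 is the replication-independent form of histone H3 and is also placed at active promoters by the HIRA complex.

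The members had the features of this family. At least 1 C2H2 finger, the pattern of paired cysteines and histidines, was found in the longest coding sequence of 171 members. The median was 11 fingers and the highest number 33, in Zfp619, and the last exon held most of the coding sequence of 156 members. Of the 3 members without a C2H2 match, Zfp36 and Zfp36l2 had 2 CCCH fingers each, the RNA-binding kind, and Zfp935 had neither. Runs of at least 4 members with consecutive starts no more than 500 kb apart formed 12 clusters, which held 139 members.

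The lists held 55742 and 64939 peaks in WT and 51955 and 60884 peaks in cKO. Read depth is unknown, so peak areas were compared only as the percentile of each peak among all peaks of its own list, where 100 is the top. Promoters of 7 of 8 macrophage marker genes were called in each library, and the exception, Spi1, was called in none. Those of 3 T cell, 3 B cell and 3 fibroblast markers were called in none. Of 3 neutrophil markers only Ly6g was called, at percentiles 30.3 and 17.8 in cKO and in neither WT library. The neutrophil genes Mpo and Elane were called in no library, and the part of other cell types in the results was not tested. Of the 7 called macrophage markers, Lyz2, Csf1r and Mertk were lower in cKO (mean differences of −39.2, −20.6 and −14.5 percentile points), Cd68 was higher (by 2.23), and Adgre1, Itgam and Fcgr1 overlapped between genotypes. Cre is inserted at Lyz2 in the cKO mice. At the deleted H3f3a, a region at chr1:180811715-180812055 stood at percentiles 5.02 and 19.1 in WT and was called in neither cKO library. The H3f3a promoter (chr1:180812969-180814512) was called in all 4, at 96.0 and 97.2 in WT against 93.4 and 94.1 in cKO. The promoter of H3f3b, which lies at chr11:116023771-116024892, remained called, at 94.2 and 95.5 in WT against 87.0 and 81.4 in cKO. Another H3f3b region (chr11:116027762-116028173) overlapped between genotypes, at 23.7 and 34.3 in WT against 28.7 and 42.5 in cKO. The paper reports that H3f3b deletion appeared variable, complete in some cKO samples and partial in others, and its degree in these libraries is not given.

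Peaks of the 4 lists that shared at least 1 bp were merged into regions. Where a library had several peaks in a region, the percentile of its top peak was used. A promoter region reached the window from 1000 bp upstream to 100 bp downstream of an annotated start of a member, and a body region lay in the gene or within 2 kb of it but reached no such window. A region was gained where a peak was found in each cKO library and in no WT library, and lost where the reverse held. Regions called in all 4 libraries were termed higher or lower in cKO where both cKO percentiles lay above or below both WT percentiles. With 2 libraries a genotype, no two-sided exact permutation test could give a p below 0.333, so these terms describe the 4 libraries.

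Promoters that differed between genotypes in the lists are shown by their sequence, from RefSeq and on the strand of the gene (GRCm38.p6, the build of the files). Each runs from 250 bases before the start site to 50 after it. Capitals mark the CCAAT box (CCAAT), the GC box (GGGCGG) and the ETS motif (CCGGAAG), each on either strand. Zfp819 and Zfp820 are the promoters gained in cKO, both of low rank. Zfp947 and Zfp579 are the ones whose mean percentile was raised most among those called in all 4 libraries. Zfp799 was the most reduced in a cluster where each called promoter had a lower mean in cKO.
Zfp819 promoter, chr7:43606919-43607218, forward strand: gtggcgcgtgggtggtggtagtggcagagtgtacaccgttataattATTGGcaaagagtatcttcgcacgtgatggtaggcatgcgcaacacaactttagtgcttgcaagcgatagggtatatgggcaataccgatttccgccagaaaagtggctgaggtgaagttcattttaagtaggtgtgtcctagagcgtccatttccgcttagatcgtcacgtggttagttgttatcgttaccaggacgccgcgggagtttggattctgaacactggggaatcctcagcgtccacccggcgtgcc
Zfp820 promoter, chr17:21845710-21846009, reverse strand: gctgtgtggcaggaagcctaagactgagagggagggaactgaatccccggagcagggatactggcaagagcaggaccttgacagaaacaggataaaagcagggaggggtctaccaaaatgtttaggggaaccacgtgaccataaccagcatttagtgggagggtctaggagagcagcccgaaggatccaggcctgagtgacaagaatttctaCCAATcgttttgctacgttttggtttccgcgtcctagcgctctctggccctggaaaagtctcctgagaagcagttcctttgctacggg
Zfp947 promoter, chr17:22165928-22166227, reverse strand: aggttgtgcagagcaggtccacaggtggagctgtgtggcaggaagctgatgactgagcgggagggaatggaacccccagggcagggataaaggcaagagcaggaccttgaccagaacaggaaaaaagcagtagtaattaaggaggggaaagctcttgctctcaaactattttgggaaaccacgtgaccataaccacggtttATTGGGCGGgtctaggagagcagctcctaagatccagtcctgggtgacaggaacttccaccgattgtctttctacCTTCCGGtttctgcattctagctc
Zfp579 promoter, chr7:4996052-4996351, reverse strand: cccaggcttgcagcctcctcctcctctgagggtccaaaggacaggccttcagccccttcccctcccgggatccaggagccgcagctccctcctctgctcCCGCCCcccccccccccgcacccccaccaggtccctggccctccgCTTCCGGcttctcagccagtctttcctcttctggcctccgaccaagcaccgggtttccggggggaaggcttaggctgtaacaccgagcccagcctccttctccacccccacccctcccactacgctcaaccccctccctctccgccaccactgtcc
Zfp799 promoter, chr17:32830212-32830511, reverse strand: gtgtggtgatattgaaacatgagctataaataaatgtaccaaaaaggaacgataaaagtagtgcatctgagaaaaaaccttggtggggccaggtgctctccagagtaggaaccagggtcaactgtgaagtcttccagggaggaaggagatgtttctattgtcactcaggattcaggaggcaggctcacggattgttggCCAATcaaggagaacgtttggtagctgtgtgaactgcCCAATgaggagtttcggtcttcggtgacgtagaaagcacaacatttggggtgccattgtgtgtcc

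Zfp820 and Zfp947 belong to 1 cluster, and their promoters were alike. In an alignment of both, 211 of 250 paired bases were identical (84.4%), and the longest run without a difference was the 20 bases ggcaagagcaggaccttgac. The promoter of Zfp994, in the same cluster, matched that of Zfp820 at 192 of 239 paired bases (80.3%). In the Zfp947 promoter the capitals joined a CCAAT box on the reverse strand to a GC box that overlaps it.

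Over the RefSeq promoters of the 155 members that had one (178 promoters), ETS matches stood in 20.8%, against 8.86% of all 32851 RefSeq promoters. The latter cover 27025 genes, open or not in these cells. The median number of CpG was 12 in member promoters and 7 in all, and the motif shares were not matched for it. The CCAAT box stood in 46.1% of member promoters and 37.4% of all, and the GC box in 38.2% and 35.7%. The AP-1 motif of macrophage enhancers (TGANTCA) was found in 3.93% of member promoters and 7.81% of all, the PU.1 motif (GAGGAAGT) in 2.81% and 3.20%, and the YY1 motif (AAGATGGCG) in 1.12% and 1.40%. A consensus of the factor NRF1 stood in 3.93% of member promoters and 0.971% of all. Promoters of members that were higher in cKO held an ETS match in 17 of 68 cases (25.0%), and those of members that were lower in 3 of 26 (11.5%). The CCAAT box went the other way, with 47.1% of the higher and 57.7% of the lower, as did the GC box, with 38.2% and 46.2%. These shares rest on few promoters and were not tested.

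Nearly all Zfp genes had an open promoter in these macrophages. A promoter region was found for 160 of 174 members (92.0%), beside 55.4% of all protein-coding genes and 71.3% of Zfp genes on other chromosomes, and 10 members had no region of either kind: Zfp97, Zfp811, Zfp955a, Zfp955b, Zfp57, Zfp112, Zfp575, Zfp626, Zfp977 and Zfp936. Zfp57, which keeps DNA methylation at imprinted loci, is among them. The promoter was the only accessible part of 106 members, and 58 had a body region. The 167 promoter regions had a median width of 904 bp, and 48 of them had mean percentiles above 90 in both genotypes. The highest were those of Zfp36l2, Zfp788 and Zfp78, each with a mean above 99. The lowest were a short alternative promoter of Zfp715, at 3.11 and 0.44 in WT against 2.70 and 28.8 in cKO, and the promoters of Zfp941 and Zfp30.

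No Zfp promoter called in WT was absent from both cKO libraries, apart from those called in WT replicate 2 alone. Of the 167 promoter regions, 156 were called in all 4 libraries (93.4%), beside 89.2% of the promoter regions of all protein-coding genes. A further 2 were gained (1.20%, background 1.03%), 0 were lost (background 1.86%), and 9 were called in 1 to 3 libraries in another way. The number of member genes with a called promoter was 152 and 158 in WT against 158 and 158 in cKO, a difference of 3 between means (155 ± 4.24 and 158 ± 0, SD, n = 2). The exact permutation p was 1 with a floor of 0.333.

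Among the promoters called throughout, more stood higher in cKO than lower. The cKO percentiles did not overlap the WT percentiles in 94 regions, of which 66 (42.3%) were higher and 28 (17.9%) were lower. Over all protein-coding genes the corresponding shares were 20.8% and 33.7%. At the higher promoters of Zfp52, Zfp53, Zfp180, Zfp658 and Zfp667, a WT library had a split call where a cKO library had a single peak. Only the top peak of a split call was ranked, so those WT percentiles rank part of the signal. At the higher promoter of Zfp710 the split was in a cKO library. The median difference between cKO and WT was +0.63 percentile points over the member promoters and −0.43 over all protein-coding promoters. It depended on the libraries, from +0.22 without WT replicate 1 and +0.45 without cKO replicate 2 to +1.10 without cKO replicate 1 and +1.39 without WT replicate 2. The differences were small beside the range of the percentile: the median absolute difference was 2.27 points, in 9 promoters the cKO mean was above the WT mean by more than 10 points and in 7 it was below by more than 10. The median percentile of the 156 promoters was 83.9 and 85.8 in the WT libraries and 85.3 and 85.1 in the cKO libraries. These library medians overlapped, and their difference of 0.33 points gave an exact permutation p of 1.

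**Figure D1:**
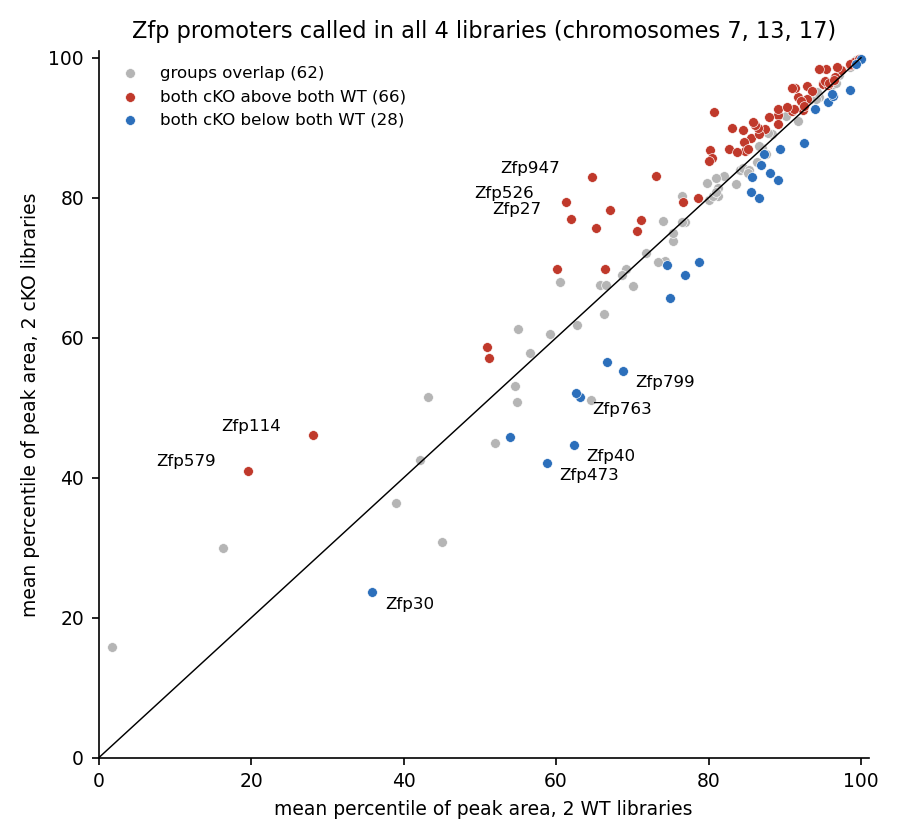
Mean percentile of peak area in the 2 WT libraries (x axis) against the 2 cKO libraries (y axis) for the 156 Zfp promoter regions called in all 4 libraries. Each point is a region, the line marks equal values, and the 66 red points (both cKO above both WT) outnumber the 28 blue ones (both cKO below both WT).

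The counts leaned the other way in Zfp genes elsewhere and the same way in neighbouring genes. Zfp genes on other chromosomes had 36 higher and 56 lower promoters of 167, with a median difference of −0.64. Other protein-coding genes on chromosomes 7, 13 and 17 had 484 higher and 492 lower of 1676, with a median of −0.0021. The other protein-coding genes that lie inside the Zfp clusters had 25 higher and 10 lower of 62, with a median of +1.04. A promoter region shared by a member and another gene counted in both sets. Of the 167 member promoter regions, 14 were shared in this way, so the neighbouring sets were not separate from the members. These sets were not compared by a test, since their members share the same 4 libraries.

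**Figure D2:**
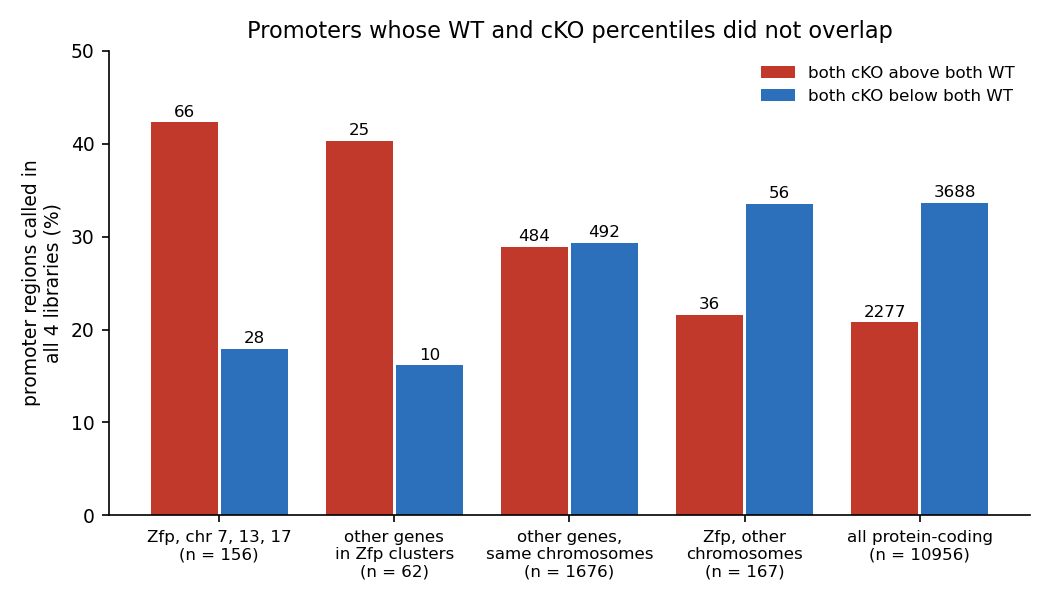
Share of promoter regions called in all 4 libraries (y axis, percent) with both cKO percentiles above (red) or below (blue) both WT percentiles, for 5 gene sets, with counts above the bars. Red exceeds blue in the Zfp genes of chromosomes 7, 13 and 17 (66 and 28) and in other genes inside their clusters (25 and 10), and blue exceeds red in Zfp genes elsewhere (36 and 56) and in all protein-coding genes (2277 and 3688).

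The share of member promoters that was higher was 44.7% on chromosome 7, 47.4% on chromosome 17 and 30.3% on chromosome 13. Most of the higher promoters lay on chromosome 7, which also held most of the promoters called throughout. There 38 member promoters were higher and 9 lower of 85, beside 262 higher and 196 lower of 753 promoters of other genes. On chromosome 17 the members had 18 higher and 10 lower of 38 (other genes 122 and 150 of 494), and on chromosome 13 they had 10 and 9 of 33 (other genes 100 and 146 of 429). Member promoters inside clusters were higher in 55 and lower in 21 of 129 cases, and those outside clusters in 11 and 7 of 27.

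The clusters of chromosome 17 differed in direction. In the cluster from Zfp160 to Zfp13 (chr17:21008903-23599487), 23 members had 21 promoter regions called throughout, with 15 higher, 3 lower and a median difference of +1.74. Library medians there were 90.3 and 92.4 in WT against 93.0 and 94.0 in cKO, with no overlap. The largest positive differences of this cluster were at Zfp947, Zfp994, Zfp942 with Zfp943, Zfp758 with Zfp944, and Zfp995. In those regions 35.9% to 61.9% of the 31-base words occurred elsewhere in the genome, so reads could be split among copies or lost. That share was 31.5% at Zfp983, also higher, and 0% and 3.89% at the higher promoters of Zfp54 and Zfp52. Its bearing on the ranks was not tested. In the cluster from Zfp871 to Zfp414 (chr17:32765496-33631779), all 10 called promoters had a lower mean in cKO, 6 of them without overlap, and the median difference was −7.49. Its library medians were 69.5 and 73.6 in WT against 62.7 and 66.4 in cKO. Besides Zfp799, the promoters without overlap belonged to Zfp763, Zfp870, Zfp871, Zfp101 and Zfp414. Of 3 promoters of other genes in that cluster, 0 were higher and 2 lower. Another 3 of its members, Zfp811, Zfp955a and Zfp955b, had no promoter region.

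On chromosome 7, 5 clusters had only positive mean differences among the promoters called throughout. The cluster from Zfp628 to Zfp580 (chr7:4915217-5053723) had 5 of 5 promoters higher, those of Zfp628, Zfp579, Zfp524, Zfp865 and Zfp784, with a median difference of +4.35. Its sixth promoter, of Zfp580, was called in 3 libraries, at 24.7 in WT replicate 2 and 7.22 and 52.0 in cKO. The cluster from Zfp551 to Zfp446 had 6 of 7 higher, and 4 of 4 promoters of other genes within it were higher too. From Zfp141 to Zfp819 the count was 5 of 7, from Zfp787 to Zfp28 it was 4 of 7, and from Zfp954 to Zfp772 it was 3 of 4. From Zfp180 to Zfp526 the promoters were mixed, with 5 higher and 0 lower of 13 and a median of +1.32. The count was 2 higher and 1 lower of 9 from Zfp607b to Zfp36 (median −0.87) and 4 higher and 2 lower of 15 from Zfp84 to Zfp146 (median −0.15). From Zfp553 to Zfp646 (chr7:127233061-127885996), 0 of 8 promoters were higher, 3 were lower and the median was −1.92. The single cluster of chromosome 13, from Zfp712 to Zfp273, with 23 members, was even, at 6 higher and 6 lower of 23.

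**Figure D3:**
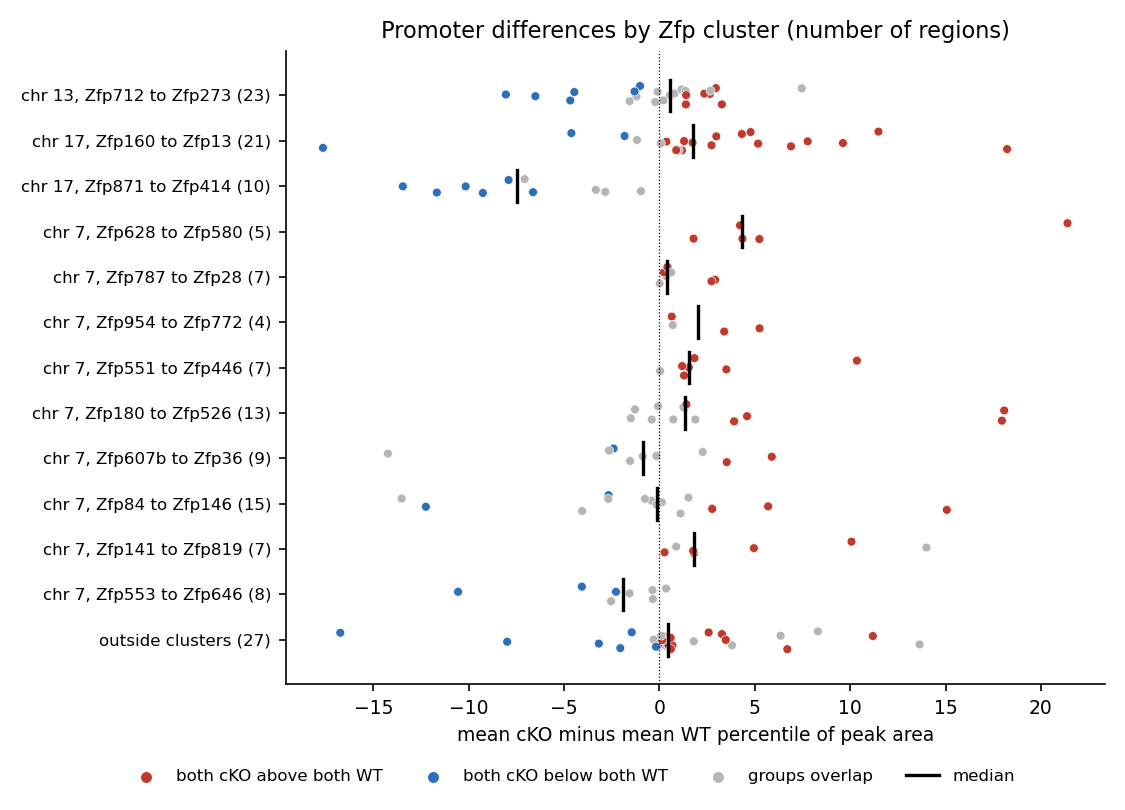
Mean cKO minus mean WT percentile of peak area (x axis) of each Zfp promoter region called in all 4 libraries, in 12 clusters and outside them (rows, with the number of regions). Bars are medians. The Zfp871 to Zfp414 row lies wholly left of 0 and the Zfp628 to Zfp580 row wholly right of it.

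The gained promoters were weak ones. The region at the promoter of Zfp820 (chr17:21845557-21846067) stood at percentiles 17.5 and 35.4 in the cKO libraries and was called in neither WT library. The region at Zfp819 (chr7:43606986-43607265) stood at 20.6 and 27.9 in cKO. Each was the only promoter region of its gene, and a WT signal under the limit of the peak caller would be missing from the lists. Besides that of Zfp580 above, 5 promoter regions had a peak in each library other than WT replicate 1. The promoter of Zfp184 was at 18.6 in WT replicate 2 and at 42.3 and 47.6 in cKO, and that of Zfp960 was at 22.6 in WT replicate 2 and at 41.2 and 49.4 in cKO. Regions of Zfp758 and Zfp65 had ranks under 5 in WT replicate 2 and of 3.68 to 32.1 in cKO, while that of Zfp459 ranked lower in cKO, at 26.8 and 28.7 against 32.3. Zfp366, which encodes the dendritic cell factor DC-SCRIPT, was called in WT replicate 2 alone, at 39.2, and Zfp629 there alone at 3.88.

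The promoter of Zfp579 had the largest positive difference. It was at 13.3 and 26.0 in WT against 38.0 and 44.0 in cKO, a difference of 21.4 points (19.6 ± 8.96 and 41.0 ± 4.23, SD, n = 2). Zfp526, whose region also holds a start site of Dedd2, was at 55.4 and 67.2 in WT against 79.0 and 79.7 in cKO. A second promoter region of the same pair of genes overlapped between genotypes, at 84.5 and 86.0 in WT against 82.7 and 85.2 in cKO. Zfp947 was at 63.1 and 66.4 in WT against 83.8 and 82.1 in cKO. Zfp27 was at 62.6 and 61.3 in WT against 77.5 and 76.6 in cKO, and Zfp114 at 17.7 and 38.5 in WT against 45.1 and 47.0 in cKO. The replicates of Zfp947 and Zfp27 were within 4 points of each other in each genotype, whereas WT replicate 2 of Zfp114 lay closer to the cKO libraries than to WT replicate 1. Of the Zfp947 region, 51.1% of the 31-base words occurred elsewhere in the genome, so reads there could be split among copies or lost, and the authors' treatment of such reads is not given in the sources used here. The regions of Zfp579, Zfp526, Zfp27 and Zfp114 held no such word.

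Among promoters whose genotypes did not overlap, the largest negative differences were at those of low or middle rank. Zfp974 and Zfp82 had mean differences of −14.2 and −13.5, but their libraries overlapped. Zfp40 had a pair of promoter regions that differed in opposite directions. The one at chr17:23193558-23193960 was at 61.3 and 63.4 in WT against 39.9 and 49.5 in cKO, while the one at chr17:23192274-23193429 was at 84.2 and 84.7 in WT against 89.8 and 89.5 in cKO. Zfp473, whose human counterpart acts in histone pre-mRNA 3′ end processing as part of the U7 snRNP, showed the same arrangement. Its region at chr7:44745055-44745543 was at 56.6 and 61.0 in WT against 36.5 and 47.6 in cKO, and the one it shares with Vrk3 was at 92.4 and 92.6 in WT against 93.1 and 93.2 in cKO. Zfp799 was at 65.96 and 71.6 in WT against 50.9 and 59.8 in cKO. Zfp763 was at 57.5 and 68.8 in WT against 45.9 and 57.1 in cKO, where the highest cKO value lay just under the lowest WT value. Zfp30, a KRAB zinc finger gene, was at 35.3 and 36.6 in WT against 13.5 and 33.8 in cKO, and there cKO replicate 1 stood far from the other 3 libraries.

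**Figure D4:**
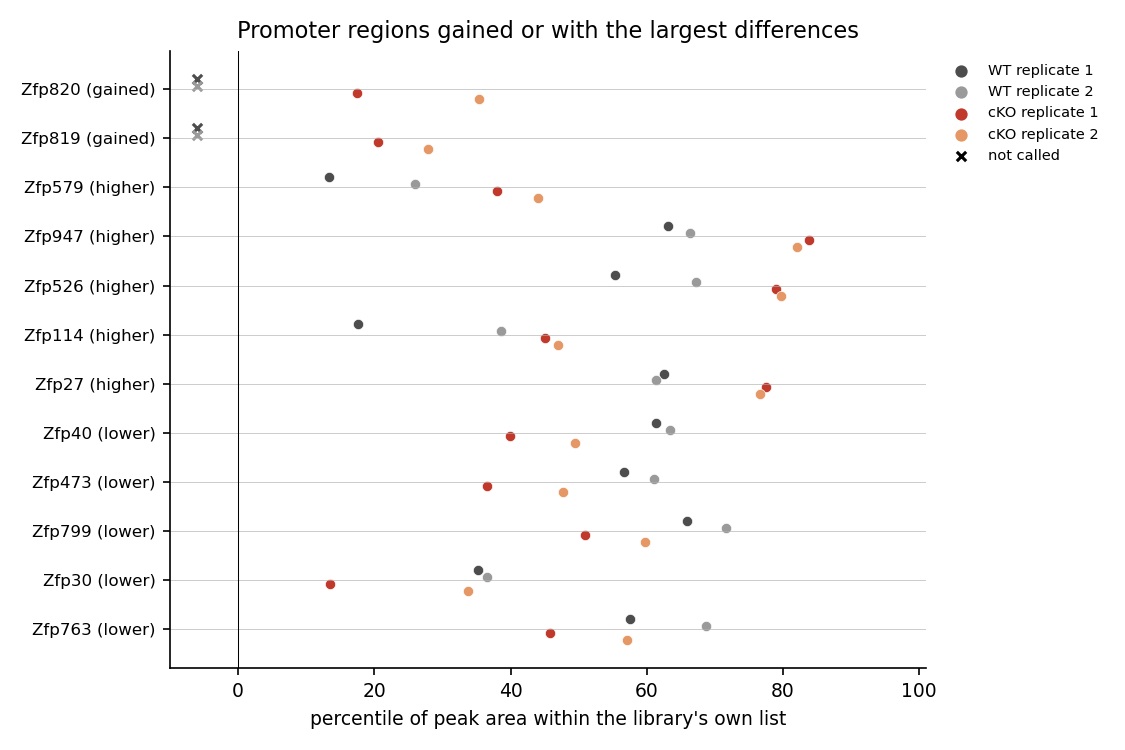
Percentile of peak area within the library's own list (x axis) in each of the 4 libraries for the 2 gained promoters, and, among promoters called in all 4 libraries without overlap, for the 5 with the largest positive and the 5 with the largest negative mean difference. Crosses mark libraries with no call. The WT and cKO points of each row do not overlap, and those of Zfp763 and Zfp30 come closest.

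The promoters of 10 members with well-known roles ranged from uncalled to the top of the lists. Zfp57 had no region, and Zfp366 and Zfp30 are described above. Zfp36 encodes tristetraprolin, which destabilises cytokine mRNAs in macrophages, and had a pair of promoter regions, both with overlap. The one at chr7:28380829-28382344 was at 96.6 and 92.4 in WT against 92.6 and 96.1 in cKO. WT replicate 2 and cKO replicate 1 each had 2 peaks in that promoter region, and the other libraries 1. The one at chr7:28377871-28379760, which reached the last exon, was at 82.8 and 87.5 in WT against 83.2 and 84.0 in cKO. There cKO replicate 2 had 2 peaks. A region beyond the 3′ end of Zfp36 was higher in cKO, at 81.7 and 90.8 in WT against 92.5 and 91.8 in cKO, and there WT replicate 1 had 2 peaks. Zfp36l2, of the same RNA-binding family, had the top promoter of the set, with means of 99.96 in WT and 99.9 in cKO. Zfp143, a transcription factor of promoters and chromatin loops, was at 99.3 and 99.3 in WT against 99.1 and 99.1 in cKO, which is lower by 0.18 points. Zfp131, a BTB zinc finger gene, was at 98.5 and 98.7 in WT against 94.5 and 96.4 in cKO. The promoters of Zfp568, which represses placental Igf2 transcripts, of Zfp318, needed for IgD expression in B cells, and of Zfp598, an E3 ligase that senses collided ribosomes, overlapped between genotypes, at ranks from 68.5 to 92.7.

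Promoter differences were also set beside features of the genes and sequences. Promoters of members with at least the median number of fingers were higher in 44 and lower in 13 of 94 cases, and those with fewer in 22 and 15 of 62. Words found elsewhere in the genome made up more than 5% of 49 of the 167 member promoters (29.3%), against 246 of 1853 promoters of other genes on these chromosomes (13.3%). Promoters above that 5% mark were higher in 23 and lower in 9 of 45 cases, and the rest in 43 and 19 of 111. Higher promoters outnumbered lower ones in both parts. The median GC content of the member promoters was 53.7% and that of the other promoters 58.7%.

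Body regions were found in 58 of 174 members (33.3%), beside 48.5% of all protein-coding genes and 42.6% of the other genes on these chromosomes. The 95 body regions comprised 65 in introns, 19 in flanks, 6 in other exons and 5 in last exons. They had a median width of 391 bp, and 6 of them lay over the promoter of a gene that is no member. Of these, 55 (57.9%) were called in all 4 libraries (background 56.8%), 8 (8.42%) were gained (background 3.89%), 3 (3.16%) were lost (background 8.96%) and 29 were called in another way. Of the 55, 19 (34.5%) were higher and 10 (18.2%) lower in cKO, beside 21.7% and 36% of the body regions of all protein-coding genes, and the median difference was +1.96 points, against −2.02. Without WT replicate 1 that median was +0.061, without cKO replicate 2 it was +0.71, and without cKO replicate 1 or WT replicate 2 it was +4.62 or +5.17. The number of body regions called was 61 and 75 in WT against 68 and 85 in cKO, a difference of 8.5 with an exact permutation p of 0.667. Their library medians, 40.1 and 49.6 in WT against 49.2 and 55.6 in cKO, overlapped (exact permutation p 0.667). In the clusters 14 regions were higher and 3 lower of 30, and outside them 5 and 7 of 25.

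The body region with the largest difference lay beyond the 3′ end of Zfp72, and that with the most negative difference in an intron of Zfp598. A stretch of 300 bases around a peak summit of each, from the reference genome on the strand of the gene, is shown because these sites differed most in rank, with the capitals as above.
Zfp72 3′ flank, chr13:74367862-74368161, reverse strand: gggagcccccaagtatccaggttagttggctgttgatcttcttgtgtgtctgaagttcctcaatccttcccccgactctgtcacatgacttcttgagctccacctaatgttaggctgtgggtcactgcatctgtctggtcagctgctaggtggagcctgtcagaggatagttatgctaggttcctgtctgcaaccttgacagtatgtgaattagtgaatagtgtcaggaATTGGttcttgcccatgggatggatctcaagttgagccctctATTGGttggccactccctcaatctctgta
Zfp598 intron, chr17:24672230-24672529, forward strand: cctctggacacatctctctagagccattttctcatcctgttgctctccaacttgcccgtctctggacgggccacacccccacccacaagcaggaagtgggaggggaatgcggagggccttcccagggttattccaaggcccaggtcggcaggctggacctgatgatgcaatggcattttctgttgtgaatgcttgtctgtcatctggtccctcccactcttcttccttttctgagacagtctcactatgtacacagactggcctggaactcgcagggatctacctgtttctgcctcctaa

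The Zfp72 region (chr13:74366888-74368190) was at 3.91 and 23.6 in WT against 87.8 and 89.5 in cKO, a difference of 74.9 points (13.8 ± 13.96 and 88.7 ± 1.23, SD, n = 2). The peaks there spanned 265 and 322 bp in WT and 1284 and 1301 bp in cKO. Interspersed repeats and other soft-masked sequence made up 60.2% of the region, and 6.83% of its 31-base words occurred elsewhere. The promoter of Zfp72 was lower in cKO, at 76.8 and 80.9 in WT against 69.5 and 72.1 in cKO. The Zfp598 region (chr17:24672195-24672529) was at 48.7 and 51.6 in WT against 14.7 and 24.2 in cKO, a difference of −30.7 points (50.1 ± 2.01 and 19.5 ± 6.68, SD, n = 2). Its peaks had similar widths throughout, 334 and 335 bp in WT and 303 and 308 bp in cKO, and none of its words occurred elsewhere.

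Further body regions differed in rank by more than 20 points. An intronic region of Zfp507 was at 10.7 and 27.3 in WT against 51.9 and 55.6 in cKO, in a gene with no promoter region. Zfp444 had one such region in its flank, at 1.19 and 4.25 in WT against 27.0 and 27.4 in cKO, and another in an intron, at 40.1 and 44.1 in WT against 61.9 and 62.9 in cKO. A region near both Zfp459 and Zfp874a was at 0.53 and 18.7 in WT against 33.3 and 31.4 in cKO. All of these groups were separate, and the cKO replicates lay within 4 points of each other.

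Besides that of Zfp598, the lower body regions with the largest differences were as follows, and several had unequal cKO replicates. The remaining lower ones were a pair in Zfp523 and those of Zfp658, Zfp819 and Zfp36l2. Of the Zfp523 pair, the larger difference was 28.3 and 28.9 in WT against 1.19 and 15.9 in cKO. An intronic region of Zfp592 was at 35.3 and 41.2 in WT against 4.69 and 14.4 in cKO. A region in an intron of Zfp536, a neural repressor gene, was at 61.0 and 62.1 in WT against 43.6 and 35.1 in cKO. Zfp446 had a flanking region at 29.9 and 43.7 in WT against 1.73 and 27.3 in cKO. Zfp710, the member with the most regions (14), had an intronic one at 59.4 and 56.6 in WT against 19.7 and 55.9 in cKO, where cKO replicate 2 was almost at the WT level. In that region cKO replicate 1 had 2 peaks and each other library 1, so the 19.7 ranks only part of a split call.

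The gained body region of highest rank lay in the last exon of Zfp235 (chr7:24142552-24142843), outside its coding sequence, at 42.3 and 47.0 in cKO. It was the only gained region in a last exon. Those in Zfp169, at 19.4 and 31.03, and in Zfp935, at 14.1 and 26.6, were intronic. One in the flank of Zfp787 stood at 11.7 and 28.8, and one in an intron of Zfp710 at 0.47 and 14.9. The other gained regions were a second one of Zfp787 and one each in Zfp595 and Zfp213. Lost regions lay upstream of Zfp473 (34.1 and 39.5 in WT), in an intron of Zfp84 (20.1 and 27.3) and beyond the 3′ end of Zfp788 (5.28 and 15.4), while promoters of Zfp84 and Zfp788 were higher in cKO.

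**Figure D5:**
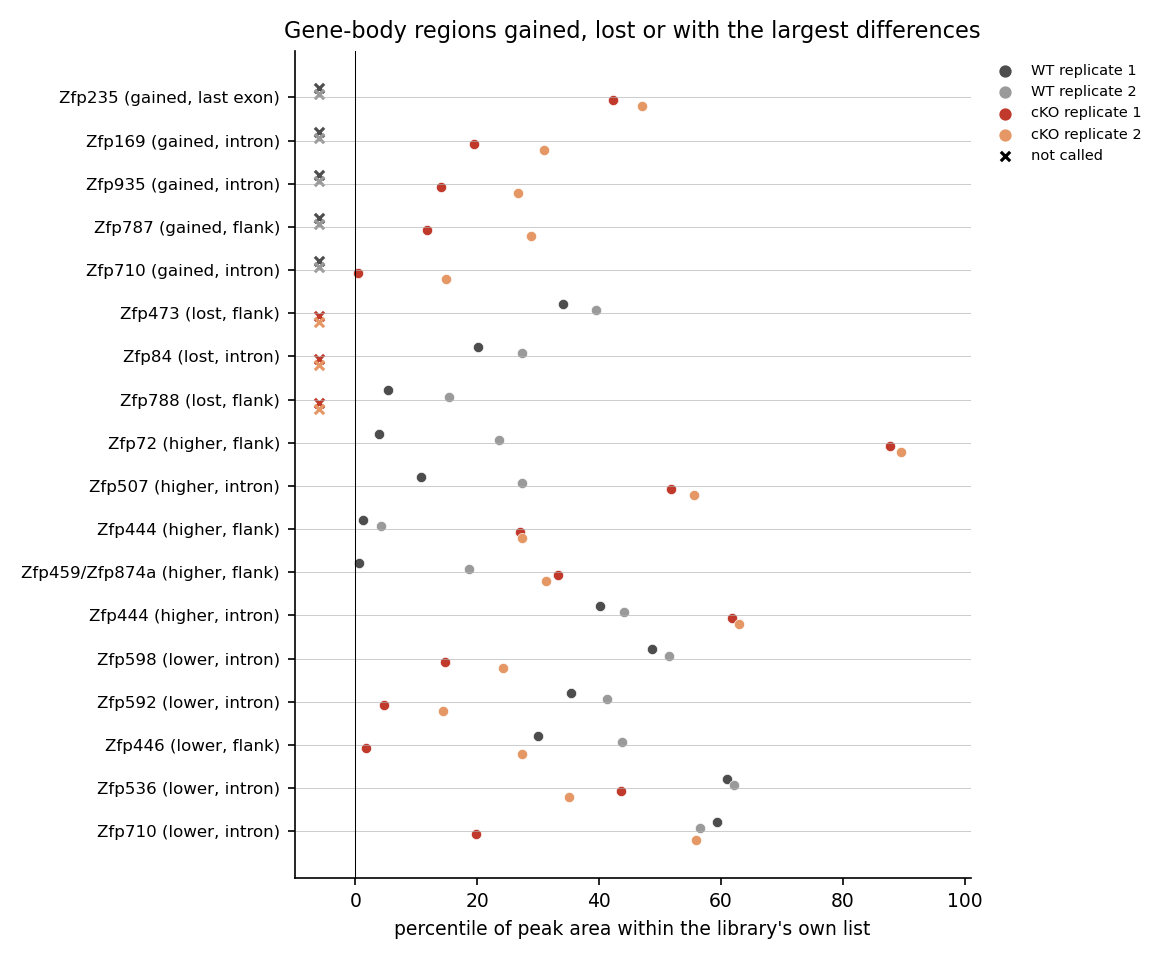
Percentile of peak area within the library's own list (x axis) in each of the 4 libraries for the 5 top-ranked gained and the 3 lost body regions and, among those called in all 4 without overlap, for the 5 largest positive and 5 largest negative mean differences, each with its place in the gene. Crosses mark libraries with no call. The cKO points of Zfp72 lie above 85 and its WT points below 25.

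The 3′ exons that encode the zinc fingers seldom held a peak. In 6 of 174 members (3.45%) a region touched the last exon, with 7 regions in all, beside 7.98% of 19339 protein-coding genes with at least 2 exons and 5.05% of 218 Zfp genes on other chromosomes. The median last exon was longer in members, at 2298 bp, than over all those genes, at 1025 bp. For Zfp36 and Zfp36l2, genes with few exons, a promoter region reached it. Members with a called region in the last exon numbered 3 and 3 in WT (1.72% each) against 4 and 6 in cKO (2.30% and 3.45%). Over all protein-coding genes with at least 2 exons the shares were 6.28% and 7.29% in WT against 5.89% and 6.86% in cKO. The region in Zfp771, which covered 798 bases of coding sequence, was at 79.6 and 80.8 in WT against 82.8 and 88.8 in cKO. The region in Zfp628, over the promoter of Nat14, was called in cKO replicate 2 alone, at 7.34, as was the one in Zfp710, at 16.4. A second region in Zfp36l2 was at 14.1 and 26.2 in WT and 4.32 in cKO replicate 2.

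Genes for the cofactors of KRAB proteins and for the handling of H3.3 and H3K9me3 were read in the same way. All 21 of the listed promoters were called in all 4 libraries, with 7 higher (33.3%), 3 lower (14.3%) and 11 overlapping and a median difference of +0.66 points. The background given above for all protein-coding promoters was 89.2% called in all 4, 20.8% higher and 33.7% lower. The higher ones were Trim28, Setdb1, its partner Atf7ip, the H3.3 chaperone gene Daxx, the HP1 genes Cbx1 and Cbx3, and the maintenance methyltransferase gene Dnmt1. Trim28 was at 93.6 and 94.5 in WT against 94.9 and 96.3 in cKO, and Setdb1 at 50.2 and 54.8 in WT against 57.8 and 57.8 in cKO. Daxx was at 87.4 and 91.5 in WT against 92.2 and 92.7 in cKO. The lower ones were Mphosph8 of the HUSH complex, at 93.4 and 93.6 in WT against 90.6 and 91.5 in cKO, Morc3, at 93.5 and 93.0 against 88.9 and 91.9, and Cabin1 of the HIRA complex, at 90.7 and 90.5 against 89.6 and 90.2.

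When 1 library was left out, fewer libraries had to separate and the counts grew, to between 76 and 95 higher and 31 and 55 lower promoters. The most lower promoters, 55, came without WT replicate 1, and 49 came without cKO replicate 2. Body regions then numbered 24 to 34 higher and 10 to 20 lower, 8 to 20 gained and 3 to 10 lost. Gained body regions numbered 20 without cKO replicate 1 and 13 without WT replicate 2, and without WT replicate 1 there were 8 gained and 10 lost. No share of all protein-coding regions is given beside these counts. The background shares above were made with all 4 libraries and do not apply to them.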

How the data were processed

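ATAC-seq libraries of WT and cKO BMDMs were prepared by the authors, who aligned reads to mm10 with Bowtie2 2.5.1 and called peaks in each library with Genrich at default settings. Read filters, duplicates, reads with several matches and any Tn5 shift are not given in the sources used here. The deposited signal was Genrich's peak area, always above 200 in each list. The deposited −log10 p-value at the summit (the summit value) was used to describe the lists and, ranked within each list, as an alternative to area. Groups came from the sample titles.

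Areas were turned into percentiles within each list. Regions, the exact permutation test over 6 assignments and all counts were computed in Python 3.11.15 with pandas 2.3.3 and numpy 2.4.6 and were tested on simulated data. Alignments used Biopython 1.88. C2H2 fingers were 2 to 4 residues between cysteines, 12 to the first histidine and 3 to 5 between histidines. Word counts covered 31-base words on the autosomes, X and Y. P-values measure only the spread between these libraries. Members, gene lists and motifs were chosen with earlier results of these data known. Genes were named for a known role, for gained or lost regions, for the 5 largest differences each way, for the highest and lowest promoters, or as members of a described cluster. Others, such as Zfp184, Zfp960, Zfp758, Zfp65, Zfp459, Zfp580, Zfp629, Zfp974 and Zfp82 and the members without a region, were named after their values were seen. Same-numbered libraries deviated together (correlation 0.295 over 44820 regions), with 2 pairs and no labelled batch. Alternatives were a stricter peak threshold, lists of equal length, 50% cover, other assignments of regions, ranks of the summit value, a replicate block and leaving out each library.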

Additional observations from a re-analysis of the deposited data

How the results depend on the processing

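All 4 counts of higher and lower regions kept their order, with more higher than lower, under each alternative run. The counts under the alternatives have no share of all protein-coding regions beside them, so this order cannot be read as particular to the members. With peaks above the median area only, promoter calls differed by 0 between genotypes, 0 promoters were gained and 3 lost, and body regions numbered 5 gained, 1 lost, 9 higher and 2 lower. With lists of equal length 6 promoters were gained. With 50% cover 5 body regions were lost. Assignment by the region's centre put 41 body regions higher and 18 lower, since promoter regions with their centre outside the window joined them. Without flanks 1 body region was lost and 12 were higher. Ranks of the summit value gave 80 higher and 25 lower promoters and 19 higher and 12 lower body regions. The median differences were then +1.76 points for promoters and +1.24 for body regions. The pairs shared only a number, and the replicate block, under which both pairs had to point one way, gave 79 higher and 40 lower promoters and 30 higher and 15 lower body regions. Dropping promoters with more than 5% repeated words, an alternative chosen after seeing the data, left 43 higher and 19 lower of 111. Ranking peaks only within promoters, also added later, gave 73 higher and 35 lower. Leaving out 1 library at a time gave 0 to 6 more members with a called promoter in cKO, 2 to 8 promoters gained, 0 to 2 lost, 76 to 95 higher and 31 to 55 lower. It gave 0 to 17 more body regions called, with 8 to 20 gained, 3 to 10 lost, 24 to 34 higher and 10 to 20 lower. The median difference ranged over 0.22 to 1.39 points for promoters and 0.061 to 5.17 for body regions. Gained regions outnumbered lost ones as reported, but not for promoters with peaks above the median area, nor without WT replicate 1 (2 gained and 2 lost promoters, 8 gained and 10 lost body regions). No difference in calls or in median percentile became negative. Depth is unknown, so a site below the caller's limit in 1 library cannot be told from a closed site.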
